A study of Arabidopsis thaliana with 18 samples.

Results

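The data described here are the shoot transcriptomes of 1 transgenic *Arabidopsis thaliana* line, *AO*pro(wt)-*AO*, collected 24 h after 10 mM KNO3 was given back to nitrogen-starved plants, set against shoots of the same line collected at the end of the starvation. The 6 arrays were chosen by their labels, 3 of resupplied and 3 of N-starved shoots, out of 18 arrays in the series. *AO* encodes L-aspartate oxidase, the first enzyme of NAD synthesis in plastids. The series asked how shoots respond to a change in nitrogen supply with and without nitrate-induced *AO* expression, and its other arrays hold *AO*pro(wt)-*AO* shoots before starvation and the same 3 stages in a second line, *AO*pro(mut)-*AO*. Both lines lack the native gene (homozygous *ao* null allele) and carry an *AO* genomic fragment, which is under the wild-type *AO* promoter in *AO*pro(wt)-*AO* and under a promoter with a mutated NLP-binding site in *AO*pro(mut)-*AO*.

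Seeds were kept on a wetted sponge for 1 day in light and 2 days in the dark, and the seedlings then grew hydroponically in constant light on dilute MS solution for 17 days, then for 3 days in N-free solution to which 0.5 mM K2SO4 had been added, and the resupplied plants then had KNO3 for 24 h. Each line is a single transgenic line, and each replicate pooled the shoots of 2 or 3 seedlings. No array holds plants kept on nitrogen, or kept starved, for the same extra day, so the change described here is that of resupply together with 1 day of age. The value compared is the log2 signal of a probe minus the log2 of its array's 75th percentile, so that 0 is the 75th percentile and a difference of 1 is a 2-fold change. Probes differ in how well they bind, so values are compared between arrays and not between genes.

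Nitrate is a nutrient and also a signal. Plant cells sense it through NIN-like protein (NLP) transcription factors, which bind nitrate-responsive sites in promoters and switch on transporters, the reductases that turn nitrate into ammonium, and further regulators. In leaves the same signal also feeds cytokinin production, growth and the retreat from the starvation programme, in which leaves make anthocyanin and recycle their protein.

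The sites that set the 2 lines apart are shown because the line described here keeps the NLP-binding site through which nitrate acts on *AO*. They are 17-base stretches of the *AO* promoter (AT5G14760, chromosome 5), read 5′ to 3′ from primers listed by the study. The wild-type stretch comes from a primer named for another mutant, Mut2, and holds the NLP-binding sequence given in the paper. Its other bases were not checked against the genome. The capitals run from the first to the last base that differs.
wild-type promoter: tagttgtGGCCGTTgga
mutated promoter: tagttgtTGCAGTGgga
The substitutions are G8T, C11A and T14G, with positions counted from 1 at the 5′ end of the stretch. *AO* itself had log2 signals of 0.50, 1.04 and 0.96 on the resupplied arrays 1, 2 and 3 and of 1.04, 1.00 and 1.14 on the N-starved arrays. The groups overlapped, and resupplied array 1 was the lowest of the 6. The difference was -0.22 (SE 0.19, adjusted p = 0.347), against a mean of 1.51 before starvation, so no change of *AO* after 24 h was detectable with 3 arrays a group. None of the 11 tested genes of NAD synthesis and salvage was called in either direction, and their differences lay between -0.26 and 0.24.

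The arrays were of even quality. Between 72.6% and 76.1% of the probes were well above background on each array, and no spot was saturated. Over the tested probes the resupplied arrays correlated with each other at 0.993 to 0.995, the N-starved arrays at 0.994 to 0.996, and arrays of different stages at 0.981 to 0.988. The residual standard deviation of a probe was 0.105 at the median over all 18 arrays. Markers of root, floral organ and seed were looked up in 3 lists. Of 7 root markers 2 passed the filter on dim probes, of 6 floral organ markers 6 passed and of 9 seed markers 7 passed, and none was called in either direction after resupply. The filter can be passed through any 1 of the 6 groups of arrays, so passing it does not place a marker in these shoots. A call compares stages, so shoot identity was not tested by these lists. Differences were positive in 3 floral markers and negative in 3. Those of *AP1* and *SEP3* were -0.28 and 0.13. Their levels, -3.31 and -4.30 in resupplied and -3.03 and -4.43 in N-starved shoots, stood above those before starvation, -5.06 and -6.39. Levels of the other floral markers are not given here, so these values do not describe the list.

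Resupply changed 933 of 21060 tested genes (4.43%). A call required a change of at least 2-fold with an adjusted p no higher than 0.05 (limma, Benjamini-Hochberg over all tested probes): 339 genes were higher after resupply (1.61% of those tested) and 594 were lower (2.82%). The median difference over all genes was -0.02, with 10083 above 0 and 10977 below it. A gene was called when any of its probes was, and the value given for it is that of its brightest probe. In 45 genes another probe made the call, and in 3 of these (AT1G15150, *CYP72A14* and *ABCG15*, all called lower) the brightest probe had a difference of the opposite sign. Of the 888 genes called by their brightest probe, 873 had resupplied and N-starved arrays that did not overlap, which was also so for 54% of all genes. In whole shoots, a lower signal from fewer cells of a type cannot be told apart from less RNA per cell. In 43 of the genes called higher the signal was not well above background on any N-starved array, and in 37 of those called lower it was not so on any resupplied array. The counts depend on how dim spots are treated: with another background correction (normexp) 214 genes were higher and 232 lower, so that the higher genes made up 48.0% of the calls, against 36.3% here.

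**Figure D1:**
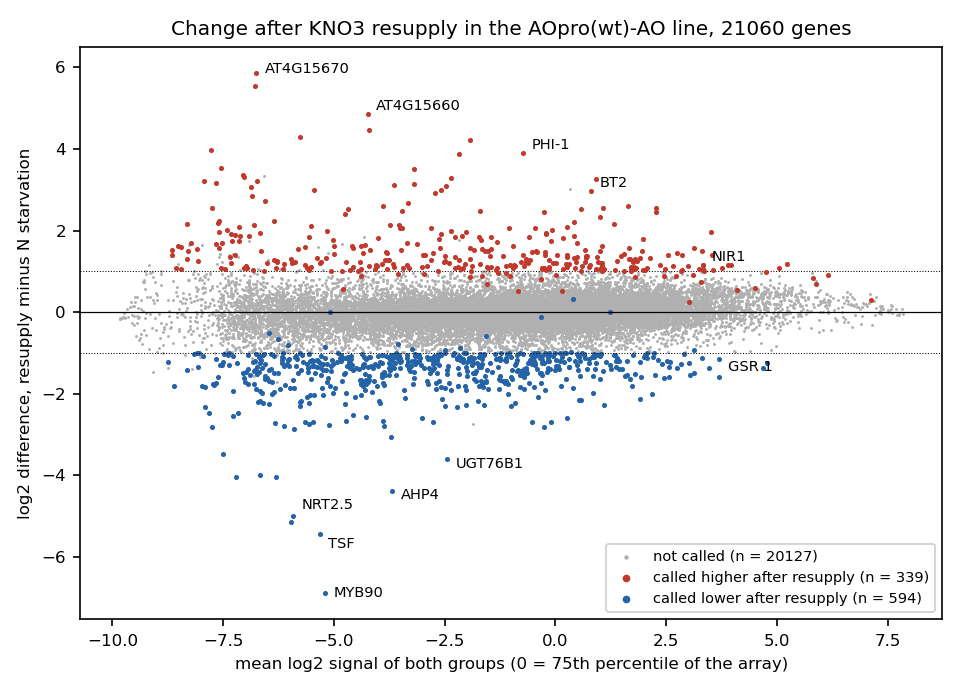
Log2 difference (resupply minus N starvation, y axis) against the mean log2 signal of the 6 arrays (x axis) for the 21060 tested genes, each by its brightest probe. Red points are the genes called higher and blue points those called lower, grey points were not called, and the coloured points inside the 2-fold lines, of which 3 blue ones lie above 0, were called by another of their probes. The outermost points, *MYB90* at -6.89 and AT4G15670 at 5.86, rest partly on signal not well above background and were at -3.09 and 2.17 with normexp.

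Among genes measured well above background at both stages, the largest rises were in CC-type glutaredoxins, AP2-domain transcription factors, cell-wall and growth genes and a cytokinin response gene. AT4G15660, a glutaredoxin gene on chromosome 4, had log2 signals of -1.74, -1.89 and -1.80 in resupplied shoots and of -6.57, -6.80 and -6.62 in N-starved shoots. All resupplied arrays were above all N-starved ones, as the choice of these genes required. The difference was 4.86 (SE 0.13, adjusted p = 5.95e-11), or 29-fold, and it was 2.96 with normexp. *DREB26* (AT1G21910), an AP2/ERF transcription factor, had -0.29, 0.31 and 0.53 in resupplied shoots against -3.97, -3.97 and -4.14 in N-starved shoots, a difference of 4.21 (SE 0.31, adjusted p = 4.75e-07). *PHI-1* (AT1G35140), named for a tobacco gene induced by phosphate and related to the leaf growth gene *EXO*, had -0.53, 1.94 and 2.27 after resupply against -2.67, -2.65 and -2.72 when starved, with a difference of 3.91 (SE 0.58, adjusted p = 0.000114). In *PHI-1* resupplied array 1 was well below the other two, although still above all N-starved arrays, and the difference was 4.78 without it. *TCH4*, a xyloglucan endotransglucosylase that loosens and rebuilds the cell wall, behaved in the same way, with 1.66, 2.78 and 3.20 against -0.69, -0.75 and -0.70 and a difference of 3.26 (SE 0.33, adjusted p = 5.7e-06). The others of the 10 largest rises were AT4G15690 (4.46), AT4G15700 (3.51) and AT3G62930 (3.12), annotated as glutaredoxins, AT3G21460 (3.88), annotated as a disulfide oxidoreductase, the AP2-domain gene AT1G77640 (3.28) and the cytokinin response regulator *ARR6* (3.14). With normexp AT4G15690 was at 2.86.

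The largest falls among genes measured at both stages were in 2-component signalling, immune metabolism, sugar transport and amino acid breakdown. *AHP4* (AT3G16360), a phosphotransfer protein of the 2-component pathway, had log2 signals of -6.62, -5.70 and -5.29 in resupplied shoots and of -0.97, -1.51 and -1.98 in N-starved shoots, a difference of -4.38 (SE 0.30, adjusted p = 2.82e-07). *UGT76B1* (AT3G11340), a glucosyltransferase that inactivates salicylic acid and related immune compounds, had -4.17, -4.55 and -4.01 against -0.15, -0.53 and -1.23. The difference of *UGT76B1* was -3.61 (SE 0.35, adjusted p = 4.68e-06), and -2.31 by its other probe. In both genes resupplied array 3 lay nearest to the starved arrays. *GPT2* (AT1G61800), a plastid transporter of glucose 6-phosphate, had -1.06, -2.07 and -1.20 after resupply and 1.09, 1.49 and 1.14 when starved, a difference of -2.68 (SE 0.30, adjusted p = 1.24e-05). *BCAT-2* (AT1G10070), an aminotransferase of the branched-chain amino acids, had -1.61, -1.94 and -2.08 against 0.87, 0.93 and 0.62, a difference of -2.69 (SE 0.20, adjusted p = 3.9e-07). *NIT4*, a nitrilase that acts on the cyanide product β-cyanoalanine, differed by -2.81 (SE 0.16, adjusted p = 6.23e-08). Stages without overlap were a condition for listing these genes. With normexp *AHP4* was at -2.55. The remaining falls of this size were in *ALD1* (-2.69), which makes the immune signal pipecolic acid, the glycosyltransferase *UGT73D1* (-2.78), the oxygenase gene AT3G13610 (-3.06), the glutaredoxin AT3G62960 (-2.74) and AT2G26695 (-2.68). With normexp the call of AT3G62960 was lost (-0.87, adjusted p = 0.228), and *UGT73D1* was at -1.59, AT3G13610 at -1.90 and AT2G26695 at -1.15.

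**Figure D2:**
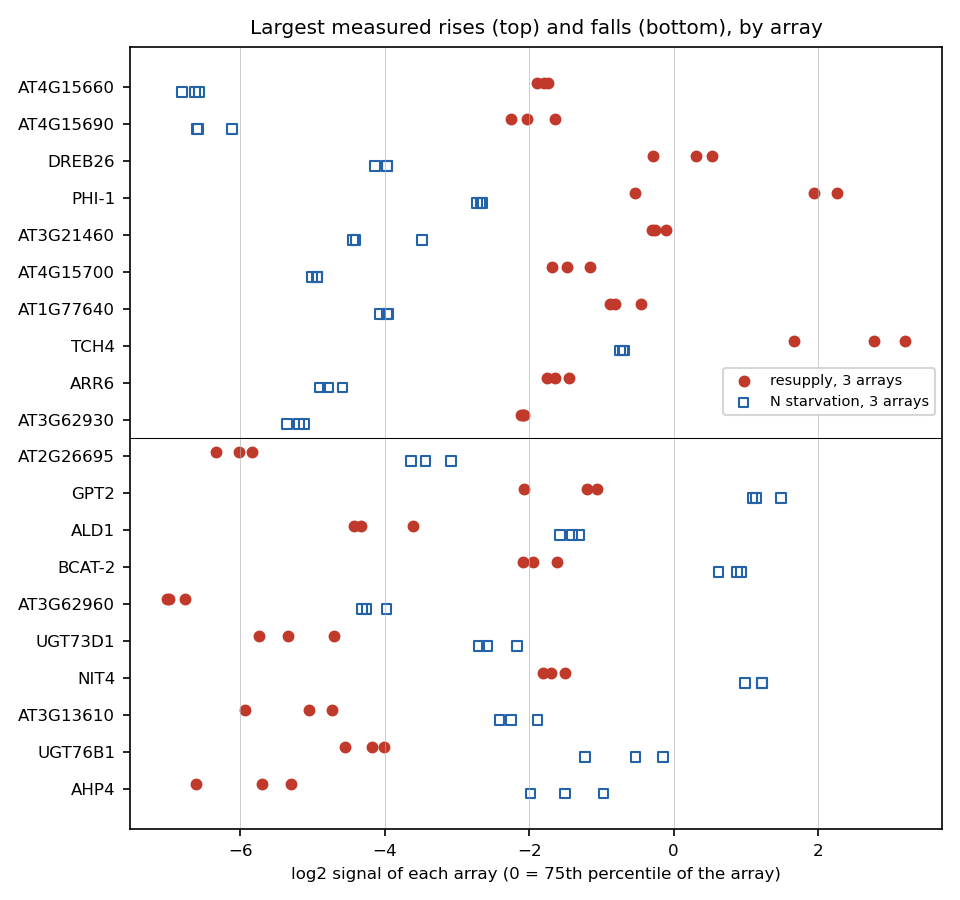
Log2 signal (x axis) on each resupplied array (filled symbols, 3 per gene) and each N-starved array (open symbols, 3 per gene) for the 10 largest rises and the 10 largest falls among genes well above background on all 6 arrays. Only genes whose stages do not overlap were eligible, and the resupplied arrays of *PHI-1* spread most, between -0.53 and 2.27.

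Resupplied array 1 was the closest of the 3 to the N-starved arrays in 180 of the 312 higher genes (57.7%) and 378 of the 575 lower genes (65.7%) that were called by the brightest probe and measured on all arrays. Without it 415 genes were higher and 704 lower. The resupplied arrays were on other slides than the N-starved ones except for replicate 3 of each stage, which shared a slide. On that slide 886 of the 888 genes differed in the direction of the fit, by 1.37 on the log2 scale at the median, but the fit that called these genes holds the same 2 arrays, so this count is largely fixed by how the genes were chosen. The part of the slide was not tested by it.

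Some of the largest changes ran against a background signal and are given as bounds, which hold only under the background correction used here. A bound here is the mean of the measured stage against, on each array of the dim stage, the higher of the dimmest reliable signal of that array and the probe's own signal. The glutaredoxin genes AT4G15670 and AT4G15680 were at least 12.3-fold and 10.7-fold higher after resupply (adjusted p = 1.42e-09 and 1.54e-08). The gene AT3G13403, annotated as a defensin-like protein, was at least 14.1-fold higher (adjusted p = 7.51e-10), and the locus of the microRNA *MIR169m* at least 3.13-fold (adjusted p = 4.44e-07). In the other direction AT4G01390, with a MATH domain, was at least 18.3-fold lower (adjusted p = 5.74e-07), AT4G01380, with a plastocyanin-like domain, at least 7.6-fold (1.8e-06), the MYB-related gene *RL1* at least 5.35-fold (2.78e-05) and *WRKY59* at least 3.55-fold (9.39e-05). With the normexp correction the calls of *MIR169m*, AT4G01380, *RL1* and *WRKY59* were lost (differences of 1.27, -0.77, -0.53 and -0.22). The other 4 kept theirs, with 2.17 in AT4G15670, 2.01 in AT4G15680, 1.96 in AT3G13403 and -1.54 in AT4G01390. Each change was smaller with normexp than its bound.

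The entry of nitrate into metabolism was followed from transport to assimilation. Counts of called members, here and in the lists below, stand beside 1.61% higher and 2.82% lower over all tested genes. Of 18 tested nitrate transport genes, 2 were higher after resupply, 1 was lower and 15 were not called, with a median of 0.10. *CLC-A* (AT5G40890), the antiporter that stores nitrate in the vacuole, had log2 signals of 1.80, 2.00 and 1.80 in resupplied shoots and of 0.15, 0.24 and 0.33 in N-starved shoots. The difference was 1.62 (SE 0.07, adjusted p = 7.89e-09), and the resupplied mean of 1.87 was near the 1.75 before starvation. *SLAH3*, an anion channel that releases nitrate, rose by 1.46 (adjusted p = 0.000289), to a mean of 0.31 against -1.15 when starved and -1.20 before starvation. *NRT2.5* (AT1G12940), a high-affinity transporter that is typical of long nitrogen starvation, went the other way, with -8.21, -7.77 and -9.28 after resupply against -3.35, -3.43 and -3.52 when starved. Only 1 of the 3 resupplied arrays was well above background for *NRT2.5*, and the measured difference of -4.99 (SE 0.68, adjusted p = 5.56e-05) lost its call with normexp (-1.59, adjusted p = 0.0667). *NRT1.1*, the dual-affinity transporter that also senses nitrate, was below the 2-fold limit, at -0.64 (adjusted p = 0.000497).

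All enzymes on the direct route from nitrate to ammonium had positive differences, near the 2-fold limit. *NIR1* (AT2G15620), nitrite reductase, had log2 signals of 3.74, 4.08 and 3.76 in resupplied shoots against 2.68, 2.79 and 2.96 in N-starved shoots, a difference of 1.05 (SE 0.11, adjusted p = 5.89e-06). *NIA2* (AT1G37130), the main nitrate reductase, had 5.06, 5.36 and 5.29 against 4.30, 4.13 and 4.34. The difference of *NIA2* was 0.98 (SE 0.11, adjusted p = 9.16e-06) by the brightest probe and 1.17 by the probe that was called. *NIA1* (0.78, adjusted p = 0.000107), the siroheme enzyme *UPM1* (0.66, adjusted p = 1.8e-05) and the glucose 6-phosphate dehydrogenase *G6PD3* (0.72, adjusted p = 1.45e-05) had adjusted p values under the threshold and changes under 2-fold. In all, 2 of the 9 tested genes of nitrate reduction and its supply of reductant were called higher and none lower, with a median of 0.66. The call of *NIR1* is marginal: its difference was 0.94 after quantile normalization.

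Ammonium assimilation moved in both directions, with 2 of 14 tested genes higher, 2 lower and a median of 0.17, which was -0.03 after quantile normalization. The cytosolic glutamine synthetase *GLN1;4* had -1.68, -1.65 and -1.61 in resupplied and 0.17, 0.38 and 0.12 in N-starved shoots, a difference of -1.87 (SE 0.11, adjusted p = 7.62e-08), and returned close to its mean of -1.90 before starvation. A second cytosolic isoform, named *GSR 1* in the annotation, differed by -1.15 (SE 0.12, adjusted p = 6.45e-06). The plastid isoform *GS2* was not called (0.29, adjusted p = 0.0113). The asparagine synthetases *ASN2* (1.33, adjusted p = 3.45e-06) and *ASN1* (1.27, adjusted p = 0.00831) were both higher, and *ASN1* lost its call without N-starved array 3 (0.82, adjusted p = 0.0397). Of 16 transporters for ammonium, urea and amino acids, 3 were lower and none higher, with a median of -0.51: the amino acid carriers *AAT1* (-1.68, adjusted p = 3.98e-05) and *AAP4* (-1.30, adjusted p = 3.42e-07) and the urea transporter *DUR3* (-1.02, adjusted p = 4.62e-05). The UMAMIT family, exporters and facilitators of amino acids, had 8 of 35 tested genes lower and none higher (4 lower with normexp), with *UMAMIT19* at -2.02 (adjusted p = 3.83e-06, lost with normexp at -0.46) and *UMAMIT17* at -1.74 (adjusted p = 6.06e-07).

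Several regulators downstream of nitrate rose, while the NLP factors themselves stayed under the 2-fold limit. Of 12 tested nitrate-responsive regulators 5 were higher and none lower, and their median was 0.70. Left out of this count for lack of a matching symbol were AT1G25550, which was called higher (1.05), and AT1G68670, which was not called (0.69). *BT2* (AT3G48360), a BTB and TAZ domain protein that restrains nitrate uptake genes, had log2 signals of 2.77, 2.34 and 1.76 in resupplied shoots and of -0.73, -0.57 and -0.75 in N-starved shoots, a difference of 2.97 (SE 0.24, adjusted p = 1e-06). *LBD39* (AT4G37540), one of 3 related LBD repressors of nitrogen-responsive and anthocyanin genes, had 0.82, 0.75 and 0.67 against -1.23, -1.17 and -1.16, a difference of 1.93 (SE 0.11, adjusted p = 6.35e-08). *LBD38* (1.48, adjusted p = 1.96e-07) and *LBD37* (1.38, adjusted p = 6.04e-07) rose with it, and so did *BT5* (1.08, adjusted p = 3.02e-07). In none of these 5 genes did the stages overlap, which was also so for 54% of all genes. None of the 11 NLP factors and nitrate-signalling kinases was called, with differences between -0.69 and 0.36. *NLP7*, the best studied of them, had the highest at 0.36 (adjusted p = 0.000114).

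CC-type glutaredoxins, small oxidoreductases of which several are known nitrate-responsive genes, had the largest share of called genes among the 21 lists. Of 21 loci written down as members 20 were tested, 11 were higher, 6 lower and 3 not called, and the median was 1.65. The RefSeq symbol of 4 and a gene description of 14 name them as glutaredoxins, and the other 3 (AT3G21460, AT1G06830 and AT2G47870) rest on the list alone. The genes called higher include 5 that lie next to each other on chromosome 4, AT4G15660, AT4G15670, AT4G15680, AT4G15690 and AT4G15700. Their sequences are closely related, and cross-hybridisation between their probes was not tested. Away from this group, AT3G62950 rose by 2.52 (adjusted p = 3.89e-07, and 1.63 with normexp), AT5G18600 by 1.78 (adjusted p = 2.08e-08) and AT1G03020 by 2.06 (adjusted p = 1.2e-07).

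The lower members of the glutaredoxin family were AT3G62960 (-2.74, adjusted p = 3.96e-08), AT4G33040 (-2.14, adjusted p = 3.96e-08), AT5G11930 (-1.68, adjusted p = 2.85e-07), *GRXS13* (at the 2-fold limit, adjusted p = 0.00312), AT2G47880 (-1.08, adjusted p = 1.53e-05) and *GRX480* (-1.84, adjusted p = 2.84e-05), a partner of TGA factors in salicylic acid signalling. AT3G62960 had log2 signals of -7.02, -6.99 and -6.77 in resupplied and -4.31, -3.97 and -4.25 in N-starved shoots, whereas AT3G62930 had -2.09, -2.08 and -2.11 in resupplied and -5.18, -5.11 and -5.36 in N-starved shoots. AT3G62930 and AT3G62960, close in number on chromosome 3, thus were called in opposite directions, though AT3G62960 lost its call with normexp. With normexp 3 of the 20 were lower. The members not called were *ROXY1* (-0.24), AT1G06830 (-0.09) and AT2G47870 (0.37). Before starvation AT4G15660 stood at -2.40, against -1.81 after resupply and -6.67 when starved, so that the resupplied level was 0.60 above the starting one on the log2 scale.

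**Figure D3:**
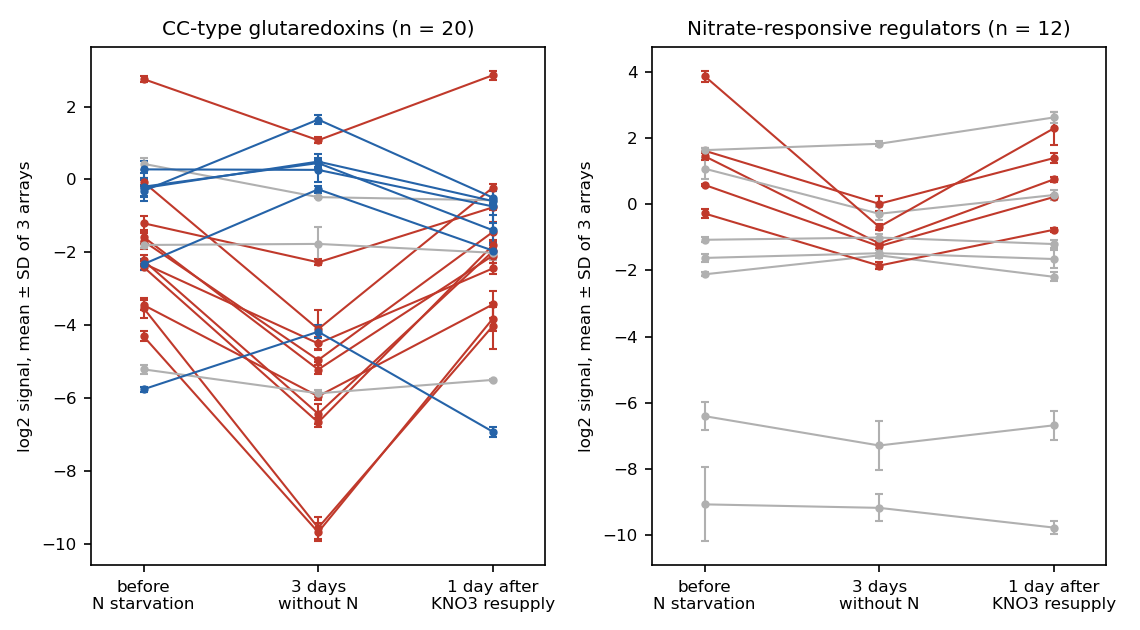
Mean log2 signal ± SD of 3 arrays (y axis) at 3 stages along the x axis (before starvation, end of starvation, 24 h of KNO3) in the *AO*pro(wt)-*AO* line, for the 20 tested CC-type glutaredoxins (left) and the 12 nitrate-responsive regulators (right). Red lines are genes called higher after resupply, blue lines genes called lower and grey lines genes not called. AT4G15660 was at -2.40, -6.67 and -1.81 at the 3 stages.

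Genes of cytokinin, the hormone that carries nitrogen status and promotes shoot growth, were called higher more often than lower. Of 20 tested genes 7 rose and 2 fell, with a median of 0.40. *ARR6* (AT5G62920), a type-A response regulator that cytokinin induces and that dampens the pathway, had log2 signals of -1.64, -1.45 and -1.75 in resupplied and -4.90, -4.79 and -4.59 in N-starved shoots, a difference of 3.14 (SE 0.14, adjusted p = 7.89e-09). Of its relatives, *RR5* (1.83), *ARR7* (1.70), *ARR15* (1.28) and *ARR9* (1.27) rose as well, and so did *IPT3* (1.58), a nitrate-responsive enzyme of cytokinin synthesis. These last 5 were chosen for mention with their values in view. *CYP735A2*, which makes trans-zeatin, was at least 1.88-fold higher (adjusted p = 8.24e-06). The synthesis genes *IPT5*, at least 3.72-fold lower (adjusted p = 6.05e-05), and *IPT7* (-1.86, adjusted p = 0.000118) were the members that fell. Both lost their calls with normexp, as did *CYP735A2*.

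Called genes of the cell wall and of growth were all higher in the lists tested. The XTH family, enzymes that cut and rejoin xyloglucan, had 6 of 26 tested genes higher and none lower, with a median of 0.59. Besides *TCH4*, *XTH33* had -2.43, -0.30 and -0.03 against -3.97, -3.82 and -4.24 in N-starved shoots, a difference of 3.09 (SE 0.51, adjusted p = 0.00024), and *XTH19* differed by 1.59 (adjusted p = 0.00183, lost with normexp at 0.98). Of the 13 trehalose-phosphate and EXO-related genes 4 rose and none fell, with a median of 0.45: *PHI-1*, *EXO* (2.55, adjusted p = 6.98e-05), the trehalose-phosphate synthase-like gene *TPS8* (1.06, adjusted p = 7.25e-06) and *EXL5* (1.04, adjusted p = 0.00299). The call of *EXL5* was lost in a fit on the 6 arrays alone (adjusted p = 0.0547), without resupplied array 2 (0.93) or 3 (0.75) and just under the limit without N-starved array 1, and that of *TPS8* without resupplied array 2 (0.99). *EXO* had 2.39, 3.78 and 4.45 in resupplied and 0.98, 0.93 and 1.05 in N-starved shoots. In *EXO* and *XTH33*, as in *PHI-1* and *TCH4*, resupplied array 1 was the lowest of the resupplied arrays. Expansins had 2 of 18 tested genes higher. No A-type or B-type cyclin among 19 was called.

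**Figure D4:**
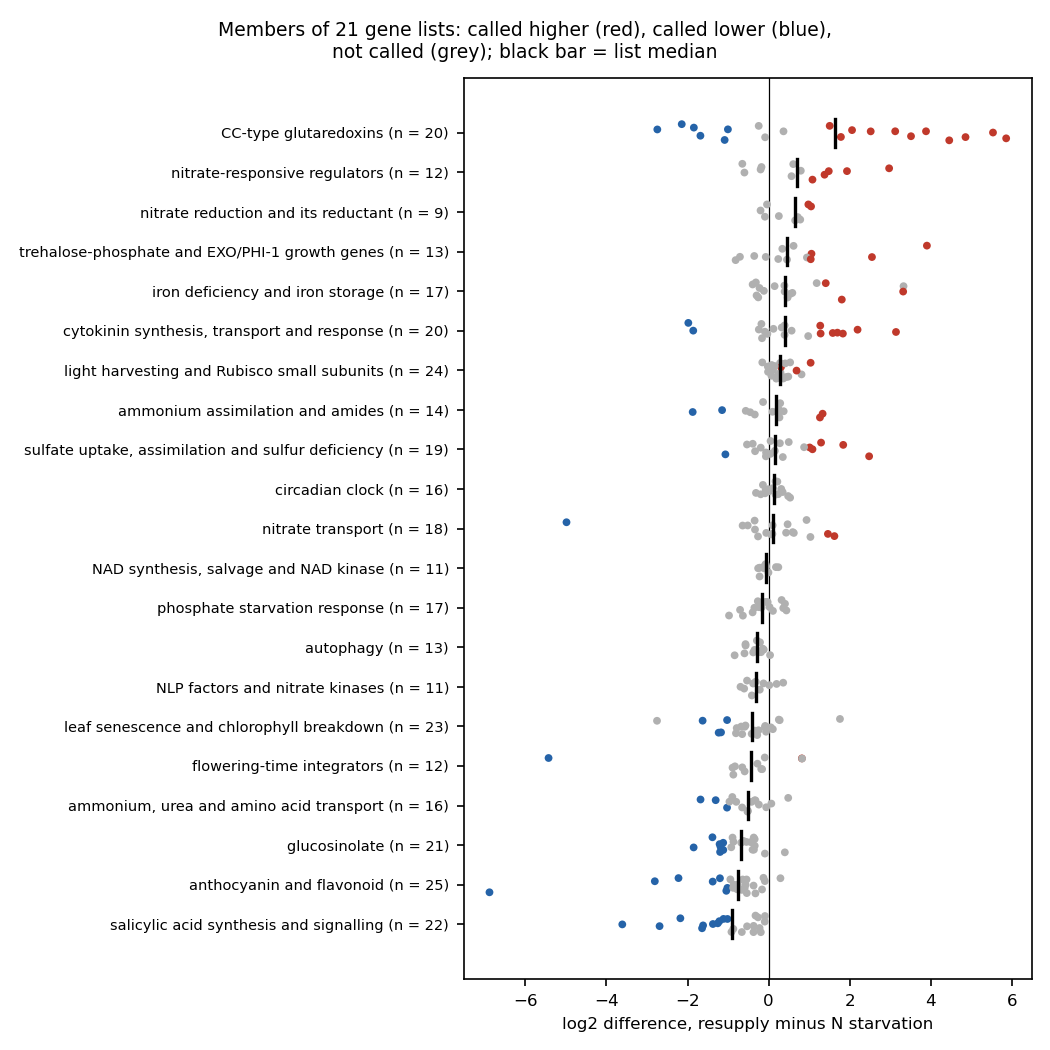
Log2 difference (resupply minus N starvation, x axis) of every tested member of 21 gene lists, 1 row per list ordered by its median (black bar), with the number of tested members beside the name. Red points were called higher, blue points lower, grey points not, and a coloured point within 1 of 0 was called by a probe other than the brightest, which is the one plotted. The medians run from -0.89 for salicylic acid genes to 1.65 for the CC-type glutaredoxins.

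Translation and photosynthesis genes shifted by small amounts. All 66 tested genes that RefSeq names as ribosomal proteins had positive differences, between 0.02 and 0.78 with a median of 0.50, and none reached the 2-fold limit. With quantile normalization or normexp 65 of the 66 were positive. Of 24 genes of light-harvesting proteins and Rubisco small subunits, 3 were higher and none lower, with a median of 0.29 (0.14 after quantile normalization) and 21 positive differences. *LHCB2.1*, an antenna protein of photosystem II, was called by its brightest probe (1.04, adjusted p = 0.000417), and with normexp it fell under the 2-fold limit (0.96). *LHCB2.2* and *LHCB3* were called by a probe other than the brightest, which gave 0.31 and 0.69.

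Among other nutrients, some genes of iron and sulfur rose and those of phosphate were not called. Of 17 iron genes 3 rose and none fell, with a median of 0.40. The nicotianamine synthase *NAS1* (AT5G04950), which makes a metal chelator for transport in the phloem, had 0.97, 1.11 and 1.12 in resupplied shoots against -0.74, -0.88 and -0.60 in N-starved shoots, a difference of 1.81 (SE 0.13, adjusted p = 3.41e-07), with a mean of 1.24 before starvation. *NAS4* differed by 1.41 (adjusted p = 4.67e-05). *BHLH101*, a factor induced by iron deficiency, was at least 4.22-fold higher (adjusted p = 0.000449), a call lost with normexp (1.21, adjusted p = 0.114). Of 19 sulfur genes 5 rose and 1 fell, with a median of 0.15. The sulfur-deficiency gene *ATSDI1* (AT5G48850) had -0.71, -0.80 and 0.11 in resupplied shoots against -3.01, -2.76 and -3.07 in N-starved shoots, a difference of 2.48 (SE 0.19, adjusted p = 6.15e-07). AT5G26220, of the ChaC-like family (1.84, adjusted p = 3.89e-07), the vacuolar sulfate exporter *SULTR4;2* (1.30, adjusted p = 6.48e-09), *LSU2* (1.08) and the sulfate-reducing enzyme *APR2* (1.01) also rose, and the phloem sulfate transporter *SULTR1;3* was lower (-1.07). The starvation solution held added K2SO4 and the resupply added KNO3, and the part of sulfate and potassium in these values was not tested. None of 17 phosphate starvation genes was called, with a median of -0.17 (0.01 with normexp).

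Genes of salicylic acid immunity had the lowest median of the 21 lists. All 22 tested genes of salicylic acid synthesis and signalling had negative differences, 10 of them were called lower and none higher, and their median was -0.89. Besides *UGT76B1*, *ALD1* had -3.61, -4.32 and -4.42 in resupplied and -1.31, -1.40 and -1.57 in N-starved shoots, and *FMO1*, which completes the systemic signal N-hydroxypipecolic acid, had -2.43, -3.03 and -3.06 against -0.24, -0.81 and -0.96, a difference of -2.18 (SE 0.45, adjusted p = 0.00131). *PAD3*, the last enzyme of the phytoalexin camalexin, differed by -1.64 (adjusted p = 0.00102). The synthesis gene *EDS16* (-1.01), the exporter *EDS5* (-1.11), *PBS3* (-1.37) and the defence proteins *PR1* (-1.21) and *PR5* (-1.25), chosen for mention after their values were seen, were called lower too. Families that hold many defence genes also had falls: 9 of 62 WRKY factors were lower and none higher (3 lower with normexp), with *WRKY62* at -2.23 (adjusted p = 1.73e-05, and -1.21 with normexp), and 6 of 37 cysteine-rich receptor-like kinases were lower and 1 higher. Glutathione S-transferases had 6 of 44 genes lower and none higher, and UDP-glycosyltransferases 10 of 57 lower and 2 higher (6 and 1 with normexp). Over all tested genes 2.82% were lower and 1.61% higher.

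Some genes of the anthocyanin programme fell, activators among them. *MYB90* (AT1G66390), an activator of anthocyanin synthesis, had log2 signals of -9.24, -9.99 and -6.69 in resupplied shoots and of -1.90, -1.38 and -1.99 in N-starved shoots, a difference of -6.89 (SE 0.59, adjusted p = 1.72e-06). Its stages were far apart although the resupplied arrays spread widely, with only 1 of the 3 well above background, and the difference was -3.09 with normexp. *PAP1* (AT1G56650), its close relative, had -1.96, -2.26 and -1.87 against -0.05, 0.43 and 0.19, a difference of -2.22 (SE 0.22, adjusted p = 5.95e-06). Of 25 anthocyanin and flavonoid genes 7 were lower and none higher, 24 differences were negative, and the median was -0.76. The regulators *MYB11*, at least 2.37-fold lower (adjusted p = 0.0052), *MYB113* (-1.38, adjusted p = 0.00355), *TT8* and *MYB12* and the flavonol synthase *FLS1* made up the rest, so that 6 of the 7 are transcription factors and 1 is an enzyme. With normexp 3 were lower, and the calls of *MYB11* (-0.06), *MYB113* (-0.97) and *TT8* (-0.73) were lost. *MYB11* also lost its call with the array values deposited by the authors (adjusted p = 0.236). Of 21 glucosinolate genes, which make sulfur-rich defence compounds, 7 were lower and none higher (4 lower with normexp), with a median of -0.67. They include the synthesis enzymes *CYP79F1* (-1.38, adjusted p = 1.02e-05) and *CYP79B2* (-1.21, adjusted p = 5.75e-06).

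Senescence genes fell in part and autophagy genes stayed under the limit. Of 23 tested senescence and chlorophyll-breakdown genes 4 were lower, none was higher, and the median was -0.42. *NAP* (AT1G69490), a NAC factor that drives leaf senescence, had -0.34, -0.62 and -0.74 in resupplied and 0.88, 1.36 and 0.95 in N-starved shoots, a difference of -1.63 (SE 0.19, adjusted p = 1.52e-05). *NAC6*, also known as ORE1, differed by -1.23 (adjusted p = 0.000159) and *SAG13* by -1.17 (adjusted p = 0.00279, and -0.89 without resupplied array 2). The classical marker *SAG12* had a difference of -2.75 (adjusted p = 0.145), which did not pass. None of the 13 autophagy genes was called, 12 differences were negative and the median was -0.29.

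Among flowering-time genes, *TSF* (AT4G20370), a relative of the florigen *FT*, had log2 signals of -8.74, -7.54 and -7.83 in resupplied shoots against -2.86, -2.16 and -2.80 in N-starved shoots, with only 1 of the 3 resupplied arrays well above background. The stages did not overlap, which was also so for 54% of all genes. The difference was -5.43 (SE 0.30, adjusted p = 4.53e-08, and -2.15 with normexp), and the mean before starvation was -6.26. Of the other 11 genes of this list, *SPL4* was called higher by one probe. None of 16 clock genes was called in these constant-light plants, with a median of 0.14.

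The *AO*pro(mut)-*AO* line received the same treatment on arrays of its own, which allows a test of the difference between the changes. *AO* had -1.25, -1.26 and -1.35 in resupplied and -0.87, -1.46 and -1.63 in N-starved *AO*pro(mut)-*AO* shoots, a difference of 0.03 (adjusted p = 0.914, limma). These signals lay below every *AO*pro(wt)-*AO* array of the same stages, so the lines differed in *AO* level at both. In *AO*pro(mut)-*AO* 147 genes were higher after resupply (0.698%) and 179 lower (0.85%). Of the genes called in the *AO*pro(wt)-*AO* line, 69 were higher and 103 lower in both lines, and none was called in opposite directions. The change differed between the lines (interaction, adjusted p no higher than 0.05) in 1447 genes (6.87%). In 1372 of the 1447 the interaction had the sign of the *AO*pro(wt)-*AO* change. Of the 124 genes named by rule, 55 had an interaction, and all 55 had that sign too. In 54 of the 55 the change was larger in *AO*pro(wt)-*AO*, a direction that the choice by that line's change favours and that most interactions over all genes shared. The number of all genes with an interaction depends strongly on the arrays and the correction. It was 131 with normexp, 748 with the slide as a block, and between 722 and 2789 when single arrays were left out. The highest came without resupplied array 1 of *AO*pro(wt)-*AO* and the lowest without N-starved array 1 of *AO*pro(mut)-*AO*.

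AT4G15660 had -1.74, -1.89 and -1.80 in resupplied and -6.57, -6.80 and -6.62 in N-starved shoots of *AO*pro(wt)-*AO*, against -1.30, -1.14 and -1.31 in resupplied and -1.93, -2.37 and -2.57 in N-starved shoots of *AO*pro(mut)-*AO*. The change of 4.86 in *AO*pro(wt)-*AO* stood against 1.04 in *AO*pro(mut)-*AO*, and the interaction was 3.82 (SE 0.19, adjusted p = 2.08e-07). The resupplied arrays of the 2 lines thus lay closer to each other than the N-starved ones. Of the 20 tested glutaredoxins 15 had an interaction, and 7 of these passed with normexp. The interactions of AT4G15670 and AT4G15680, whose N-starved signals in *AO*pro(wt)-*AO* were not well above background, did not pass with normexp (adjusted p = 0.281 and 0.210). *BT2* changed by 2.97 in *AO*pro(wt)-*AO*, against 0.47 in *AO*pro(mut)-*AO* (interaction 2.50, SE 0.34, adjusted p = 0.0018). Its N-starved levels differed between the lines, at 1.62, 1.26 and 0.94 in *AO*pro(mut)-*AO* against -0.73, -0.57 and -0.75 in *AO*pro(wt)-*AO*. Resupplied levels were 1.93, 2.06 and 1.25 against 2.77, 2.34 and 1.76. The change was larger in *AO*pro(wt)-*AO* in all 5 nitrate reduction genes with an interaction, the direction of most interactions over all genes. Of these 5, *NIR1* alone passed with normexp. *NIR1* changed by 1.05 in *AO*pro(wt)-*AO* and by 0.05 in *AO*pro(mut)-*AO* (interaction 1.00, SE 0.15, adjusted p = 0.00292). In *AO*pro(mut)-*AO* it had 3.69, 3.62 and 3.40 when starved, against 2.68, 2.79 and 2.96 in *AO*pro(wt)-*AO*. After resupply it had 3.60, 3.66 and 3.59 against 3.74, 4.08 and 3.76. *MYB90* changed by -6.89 in *AO*pro(wt)-*AO*, against -2.74 in *AO*pro(mut)-*AO* (interaction -4.15, SE 0.84, adjusted p = 0.0132, lost with normexp at an adjusted p of 0.612). Its levels in *AO*pro(mut)-*AO* were -3.88, -2.79 and -3.20 when starved and -5.80, -6.11 and -6.19 after resupply. Those in *AO*pro(wt)-*AO* were -1.90, -1.38 and -1.99 when starved and -9.24, -9.99 and -6.69 after resupply.

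For other rises no difference between the lines was detected. No gene of the XTH family had an interaction, and *AO*pro(mut)-*AO* had 7 XTH genes higher where *AO*pro(wt)-*AO* had 6. *DREB26* changed by 4.21 in *AO*pro(wt)-*AO*, against 3.17 in *AO*pro(mut)-*AO*, with an interaction of 1.04 (SE 0.44, adjusted p = 0.186), and *PHI-1* by 3.91 in *AO*pro(wt)-*AO* shoots against 3.20 in *AO*pro(mut)-*AO* shoots, with an interaction of 0.71 (SE 0.82, adjusted p = 0.671). The standard errors of both interactions are wide beside the differences.

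**Figure D5:**
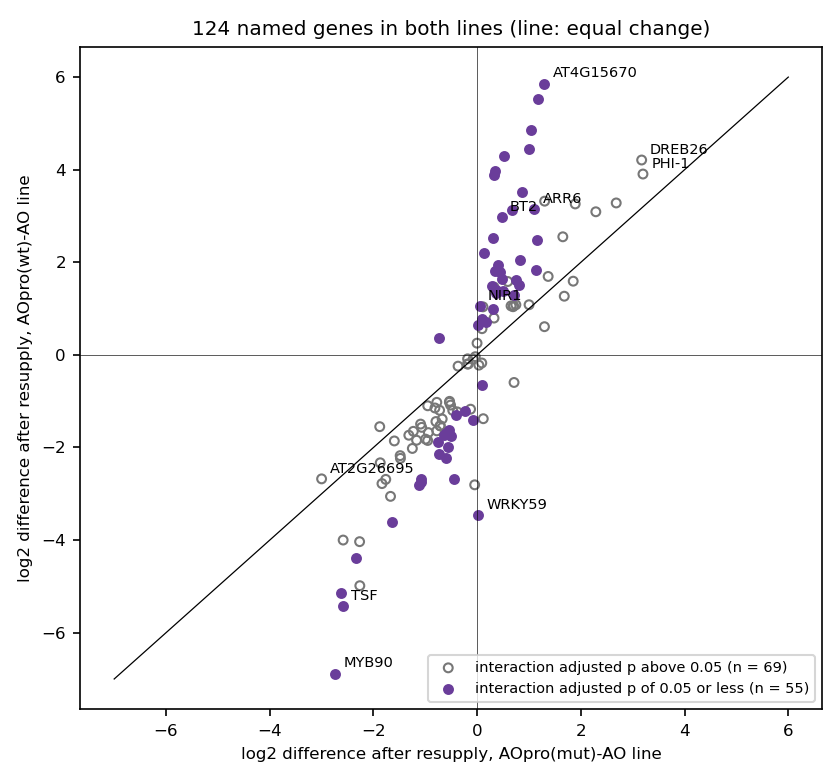
Log2 difference after resupply in the *AO*pro(wt)-*AO* line (y axis) against that in the *AO*pro(mut)-*AO* line (x axis) for the 124 named genes, with the line of equal change. Filled purple points (55 genes) passed the test of the interaction and open points (69 genes) did not. AT4G15670 lies far above the line and *MYB90* far below it.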

How the data were processed

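RNA of whole shoots was labelled with Cy3 and hybridised to 1-colour Agilent *Arabidopsis* arrays, 18 in all. The deposited scanner files hold background-corrected spot intensities (processed signal) that the authors did not normalize between arrays, extracted with Feature Extraction 12.1.1.1 per the file headers. The authors also deposited a table of array values whose method is not given in the sources used here. It correlated with the processed signal divided by each array's 75th percentile and served as an alternative.

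From the deposited intensities, log2 of the processed signal minus log2 of the array's 75th percentile was computed, which puts all values on a log2 scale, control spots and spots marked as outliers were left out (3 to 91 per array), and spots that repeat a probe were averaged. The test took probes that were well above background on all arrays of 1 or more of the 6 groups. These were 29416 probes of 21060 genes, and 3350 further probes that could not be matched to 1 gene of the RefSeq table. limma 3.58.1 in R 4.3.3 was fitted with 6 group means on all 18 arrays (lmFit, eBayes), with Benjamini-Hochberg adjustment over all tested probes, and the interaction compared the changes of the 2 lines. A gene was called by any of its probes, and its printed value is that of its brightest tested probe. On simulated data of the same size, 94 of 100 probes changed by 1.5 and 99 of 100 changed by 2 (log2) were recovered, with 1 other call. The simulated noise was independent between arrays and probes, without array or slide effects, so these counts do not measure reliability in the real data. The number of arrays limits the precision: the median standard error of a difference was 0.084. The labels do not say whether replicates came from separate cultures, so p-values measure the spread between these arrays.

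Groups came from the labels. The genes named are the 10 largest rises and falls measured at both stages, the 4 largest bounds each way, up to 4 called members of each of 21 lists, the 3 largest of each of 14 families, *AO*, and every member of the nitrate reduction, nitrate-responsive regulator and glutaredoxin lists, 124 in all, together with those said to have been picked after their values were seen and list members given for comparison. The gene set and the lists were chosen with earlier results of these data known. A list member whose locus did not carry its symbol in the RefSeq gene table (assembly TAIR10.1), from which the families were taken too, was left out (12 loci, of which 3 were called). The 3 were called higher: AT1G25550 of the nitrate-responsive regulators (1.05), AT1G47400 of the iron genes (2.05) and AT1G04770 of the sulfur genes (2.45). All glutaredoxin loci were kept, since the descriptions that name most of them come from the study's supplementary tables of changed genes. Lists are described by counts and medians, with no test of a list. Alternatives were quantile normalization, normexp on the median signal (offset 50), the deposited array values, other probe filters, marked spots kept, fewer arrays, the replicate number as a block, the slide as a block, a trended prior, no minimum fold change, other probes of a gene, and each array left out in turn. Promoter motifs were not analysed here.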

Additional observations from a re-analysis of the deposited data

Results flagged for a closer look

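Of the 124 named genes, 55 had a change after resupply that differed between *AO*pro(wt)-*AO* shoots and those of *AO*pro(mut)-*AO* (interaction, adjusted p of 0.05 or less over all tested probes by limma), and their interactions, the *AO*pro(wt)-*AO* change minus the *AO*pro(mut)-*AO* change on the log2 scale, are given here as values. Among the loci written down as glutaredoxins they were 4.57 in AT4G15670, 4.37 in AT4G15680, 3.82 in AT4G15660, 3.56 in AT3G21460, 3.46 in AT4G15690, 2.64 in AT4G15700, 2.45 in AT3G62930, 2.21 in AT3G62950, 1.34 in AT5G18600, 1.24 in AT1G03020, 0.69 in AT2G30540, 1.1 in AT2G47870, -1.08 in AT5G11930, -1.41 in AT4G33040 and -1.66 in AT3G62960. Among nitrate transport, reduction and assimilation genes they were 0.88 in *CLC-A*, 1.00 in *NIR1*, 0.68 in *NIA2*, 0.68 in *NIA1*, 0.64 in *UPM1*, 0.56 in *G6PD3*, 0.98 in *ASN2* and -1.12 in *GLN1;4*.

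Among regulators they were 2.50 in *BT2*, 1.53 in *LBD39*, 1.20 in *LBD38*, 0.88 in *LBD37*, -0.73 in *BT3*, -1.08 in *NAP*, -1.34 in *XND1*, -3.48 in *WRKY59*, -1.63 in *PAP1*, -4.15 in *MYB90* and -2.84 in *TSF*. Cytokinin and 2-component genes had 2.04 in *ARR6*, 2.06 in *CYP735A2*, 1.16 in *UGT76C2*, -1.41 in *IPT5* and -2.04 in *AHP4*. The metal and sulfur genes had 1.46 in *NAS1*, 1.05 in *NAS4*, 1.33 in *ATSDI1*, 0.71 in AT5G26220 and 0.59 in *SULTR4;2*. The remaining genes had 3.76 in AT3G13403, 3.63 in *MIR169m*, -2.51 in AT4G01390, -1.97 in *UGT76B1*, -1.70 in *NIT4*, -1.61 in *BCAT-2*, -2.23 in *GPT2*, -1.25 in *CYP722A1*, -0.98 in *CYP79B2*, -0.89 in *AAP4* and -1.09 in *UMAMIT17*. With normexp 24 of the 55 passed the threshold and 53 kept their sign, 51 passed with the slide as a block, 48 in a fit on the 12 arrays of both stages and 54 after quantile normalization.

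Of 3350 tested probes to which the array annotation gives no gene, 42 were higher and 45 lower after resupply.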

How the results depend on the processing

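The counts of genes changed by resupply stayed within 1.5 times of 339 higher and 594 lower under every alternative except normexp (214 higher, 232 lower) and no minimum fold change (5176 higher, 5503 lower). Leaving out single arrays gave 313 to 415 higher and 496 to 704 lower. In the *AO*pro(mut)-*AO* line normexp gave 49 higher and 61 lower, no minimum fold change gave 3287 and 2995, and leaving out single arrays gave 142 to 279 lower, with 279 without N-starved array 1 of that line. The interaction count of 1447 was less stable, with 131 under normexp, 673 in a fit on the 12 arrays of both stages, 748 with the slide as a block and 722 to 2789 with single arrays left out. No pairing by replicate number was visible, as deviations of equal number correlated at -0.02, 0.07 and 0.04 between the resupplied and N-starved arrays. The labels do not say whether plants of equal number were grown together. With the replicate block 340 genes were higher, 594 were lower and 1310 had an interaction, and no call of a named gene changed.

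Under normexp list counts also moved, to 0 lower in nitrate transport, cytokinin and sulfate genes, 3 lower in glutaredoxins, anthocyanin genes and WRKY factors, 4 lower in glucosinolate genes and UMAMIT transporters, 0 higher and 3 lower in NAC factors, 2 lower in MYB factors, 0 either way in bHLH factors, 1 higher and 0 lower in ERF and DREB factors, 2 higher and 7 lower in P450 enzymes, 1 higher and 6 lower in glycosyltransferases and 1 higher in expansins. After quantile normalization 1 nitrate reduction gene was higher. Of the 105 named genes called, 27 lost the call under normexp (1 of them, *ERF14*, with a change of sign), and 36 were smaller by over 1.5 times or changed sign there. At most 5 lost it under any other full setting and 16 when some array was left out. Signs turned in *ERF14* under normexp (0.13, called lower in the report's fit) and in genes that were not called: *AGL44* under normexp (0.43), *TGA1* by another probe (0.11), AT1G06830 with the slide as a block (0.0193) and *FD3* with that block (0.000827) and over single arrays left out (-0.14 to 0.059). Under normexp the median of all genes was 0.08, and the list medians of phosphate starvation genes and of the NAC, MYB, bHLH, ERF and P450 families and the cyclins became positive. The cause was not tested.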
